A study of Drosophila melanogaster with 18 samples.

Results

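The response of S9.6 signal to RNase H was examined in S2 cells with a knockdown of hrp36, at every region of the authors' deposited table for these cells. All 2980 regions of that table were used, of 17192 regions listed in the 3 tables of the series. The response of a region is the hrp36 RNH+ group mean minus the hrp36 RNH- group mean, on the log2 scale of normalised reads, so that a negative value is a lower signal with RNH+. The regions were described by chromosome, by length and by base mean, the authors' normalised read count per region averaged over libraries.

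The series is a DRIP-seq experiment on S2 cells, an established Drosophila melanogaster line of embryonic origin, in which genomic DNA was sonicated and immunoprecipitated with S9.6. Its 18 libraries form 9 groups of 2: RNH+, RNH- and 10% input for cells labelled hrp36, hrp48 and LacZ. RNH+ and RNH- are read here as DNA with and without RNase H treatment. The hrp36 RNH+ and hrp36 RNH- libraries (2 each) give the response, the hrp48 cells serve as the other knockdown, and the LacZ cells are taken as the control. LacZ is a bacterial gene that flies lack. The sources used here do not give the level of each knockdown or say whether the 2 libraries of a group came from separate cultures. A p-value therefore reflects only how far these libraries differ, which may be technical.

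S9.6 is an antibody that binds RNA-DNA hybrids, the core of an R-loop, in which a nascent RNA pairs with 1 DNA strand and displaces the other. RNase H cuts the RNA strand of such hybrids, and a loss of S9.6 signal after its use is the usual sign of a hybrid. The antibody can also bind other structures, double-stranded RNA among them, which RNase H leaves. Proteins of the hnRNP family, such as hrp36 (gene Hrb87F) and hrp48, coat nascent transcripts and take part in their splicing and export. Transposable elements, which fill much of fly heterochromatin, are present in many copies of near-equal sequence, and a short read from them has several possible places.

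The regions were from 203 to 37067 bases long (median 565), and their base mean ran from 36.5 to 192843 (median 310.5). U and Uextra, the parts of the dm3 build for scaffolds without a place on a chromosome, held 2316 of them (77.7%). Another 662 lay on placed sequence, that is the chromosomes and the Het scaffolds of mapped heterochromatin, and 2 on mitochondrial DNA. The tables hold means of 2 libraries per group and no value per library, so levels are printed without an SD, the depth per library is unknown, and the error of a region is the standard error that the authors' deposited table gives for its fold change (0.255 to 0.626, median 0.373). The names of these regions carry hrp36 and Un, a label read here as RNH-. The choice of regions is therefore taken to favour a high RNH- level in hrp36 cells and with it a negative response. The sources used here do not say how the regions were called.

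Most regions that responded lost signal with RNH+. By the adjusted p of the authors' deposited table, taken under 0.05, calls were made at 1338 lower (44.9%) and 159 higher (5.34%) regions, and 1483 were not called. Regions called lower had a median level of 7.58 with RNH+ and 9.23 with RNH-, and a median response of -1.74, a 3.34-fold lower signal. Those called higher had medians of 8.75 with RNH+ and 7.13 with RNH- and a median response of 1.39 (2.63-fold). Over all 2980 regions the median response was -0.78 (quartiles -1.59 and -0.08), and 77.0% of regions were below 0. The smallest called fold change in the authors' deposited table was 0.67 on the log2 scale and the largest not called was 1.35, since the standard error differs between regions.

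The balance between falls and rises depends on where 0 is set. The normalisation assigns 0, and a change common to all regions would be hidden by it or would appear at other regions. When the arm median (-0.60 in log2) was subtracted from all fold changes, 744 regions were lower and 522 higher, so 58.8% of calls were falls, against 89.4% as deposited. Centred on the median of all listed regions, which by construction sets falls and rises near balance, 614 were lower and 672 higher (47.7% falls). Directions are given below on the deposited scale.

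**Figure D1:**
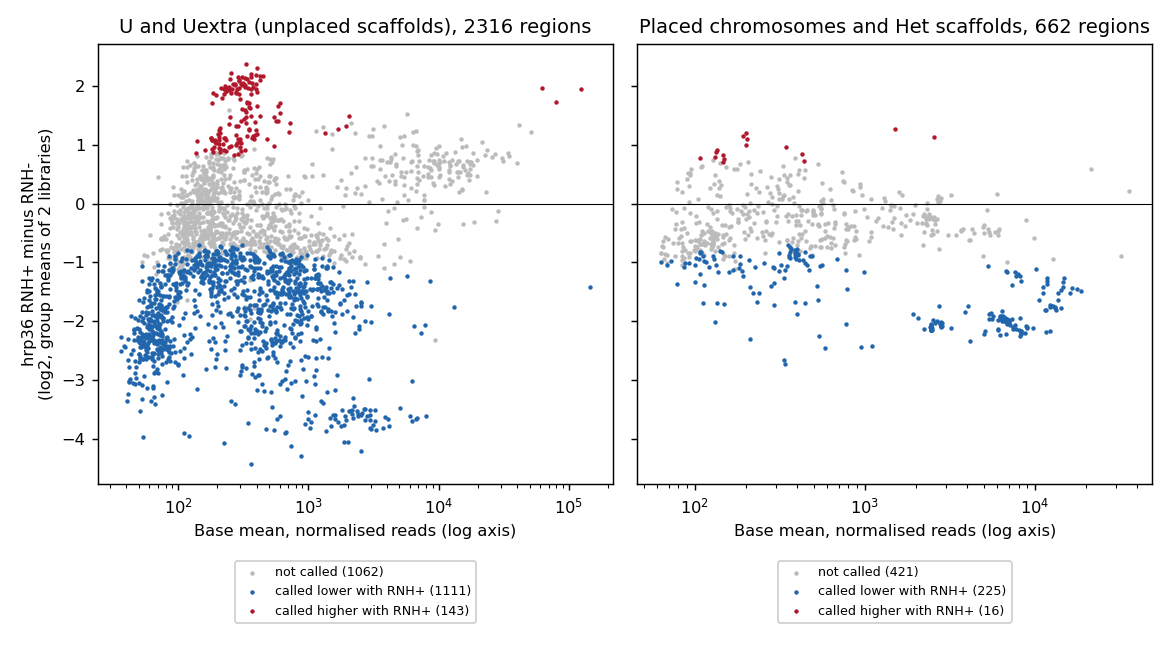
Response of the hrp36 cells (RNH+ minus RNH-, log2, each a difference of means of 2 libraries) against base mean on a log axis, 1 point per region, for 2316 unplaced regions on the left and 662 placed regions on the right. Blue points were called lower, red points higher and grey points neither. Unplaced regions show a group of falls below a base mean of 100 and a band around -3.6, and placed regions show deep falls at base means of 1000 and over.

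Falls were found on every chromosome and scaffold class of the table except chromosome 4. By class, calls of a lower signal were made at 108 of 208 regions on U (51.9%), 1003 of 2108 on Uextra (47.6%), 20 of 49 in the pericentromeric ends of the arms (40.8%), 50 of 138 on Het scaffolds (36.2%) and 155 of 470 on the arms (33.0%). All of these but U and Uextra lie below the 44.9% of the whole table. Among the arms, pericentromeric ends included, the share was highest on 2L (56 of 151 regions, 37.1%) and lowest on 3R (23 of 82, 28.0%), with 3L at 36.1%, 2R at 33.8% and X at 31.2%. On chromosome 4, the small and largely heterochromatic autosome, 0 of 5 regions were called either way, and the median response was 0.15.

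Uextra held 137 of the 159 rises, which is 6.50% of its 2108 regions, near the 5.34% of the whole table, and these had a median response of 1.54. Arm 3R held 6 of its 82 regions (7.32%), against 2 on each of 2L, 2R and 3L and 1 on X. The group of 3R is described further on. Het scaffolds held 3 rises and U 6. The pericentromeric ends held 0 of 49, where 5.34% of the whole table rose.

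**Figure D2:**
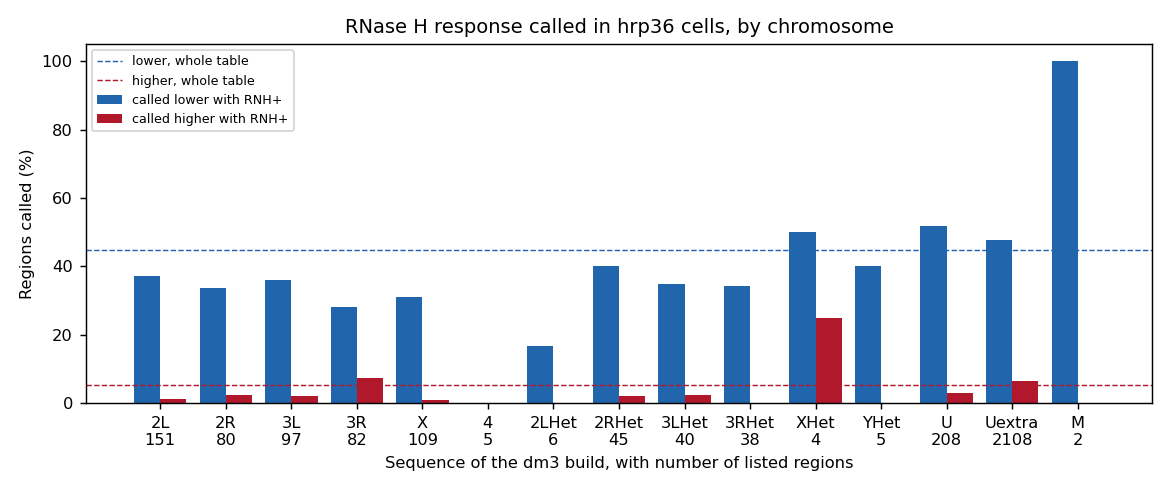
Percent of regions called lower (blue bars) and higher (red bars) with RNH+ in hrp36 cells, by sequence of the dm3 build, with the number of listed regions under each name and the shares of the whole table as dashed lines. U and Uextra stand at 51.9% and 47.6% lower, the 5 large arms between 28.0% and 37.1%, and the scaffolds 2LHet, XHet and YHet hold 6 regions or fewer.

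Mitochondrial DNA, whose replication itself passes through RNA-primed hybrids, held 2 regions, and both were called lower. The region from 27 to 15007 of M, nearly the whole coding part of this genome, had the highest base mean of the table. Its level was 16.44 with RNH+ and 17.94 with RNH- in hrp36 cells, 17.10 and 17.99 in hrp48 cells, and 16.39 and 17.95 in LacZ cells. The response of hrp36 cells, -1.50, lay beside that of LacZ cells at -1.56, and their difference did not pass the test (0.06, adjusted p = 0.974, Wald test with Benjamini-Hochberg adjustment). Its fold change in the authors' deposited table was -1.37, with SE 0.35 and an adjusted p of 0.000651. The other mitochondrial region, from 15718 to 17445, had levels of 11.40 with RNH+ and 12.71 with RNH- in hrp36 cells, against 10.73 and 13.04 in LacZ cells, so that its response was -1.31 against -2.31. In the authors' deposited table its adjusted p was 0.0491, close to the threshold. A U region of similar length, from 5288409 to 5303481 (15072 bases), had levels of 16.08 with RNH+ and 17.50 with RNH- and a response of -1.42. Its levels in LacZ cells, 16.004 and 17.55, also lay near those of the first mitochondrial region, and whether the 2 sequences share reads was not tested.

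Length and base mean went with the response in different ways on placed and on unplaced sequence. Among placed regions the share called lower was 8.33% below 300 bases (2 of 24), 20.7% from 300 to under 500, 20.4% from 500 to under 1000, 42.5% from 1000 to under 2000 and 54.5% at 2000 bases and over (103 of 189). The last of these lies above the 44.9% of the whole table and the others lie below it. Over all 662 placed regions the share was 34.0%, and both the 42.5% and the 54.5% lie above it. On unplaced sequence the shares in the same order were 57.0%, 40.7%, 52.5%, 42.9% and 38.5%, and the longest class held only 26 regions. Over all 2980 regions they were 48.6%, 38.3%, 47.9%, 43.0% and 52.8%, which hides the order seen on placed sequence. Longer placed regions also had higher base means, with a median of 5688 at 2000 bases and over against 90.4 below 300 bases, so the part of length and of depth of signal cannot be told apart here.

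Base mean, too, went with the calls differently on the 2 kinds of sequence. On placed sequence the share called lower was 15.0% below a base mean of 100, 21.3% from 100 to under 300, 26.0% from 300 to under 1000, 30.9% from 1000 to under 3000 and 76.4% at 3000 and over (97 of 127). On unplaced sequence 82.0% were called lower below 100 (310 of 378), 29.9%, 55.6% and 63.1% in the next 3 classes and 13.8% at 3000 and over (27 of 195). At the unplaced regions of 3000 and over the median response was 0.54, with 0.70 in hrp48 cells and 0.56 in LacZ cells at the same regions. Below 100 the unplaced median was -1.98, with -1.24 in hrp48 and -1.10 in LacZ cells. Base mean includes the hrp36 libraries themselves. With the regions divided into 5 equal groups by their level in LacZ cells, a measure without those libraries that was chosen after the values were seen, 18.3% were called lower in the lowest and 56.5% in the highest group on placed sequence. On unplaced sequence the order was the reverse, with 69.3% in the lowest and 34.5% in the highest group, and over all regions the shares were 62.2% and 43.0%.

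**Figure D3:**
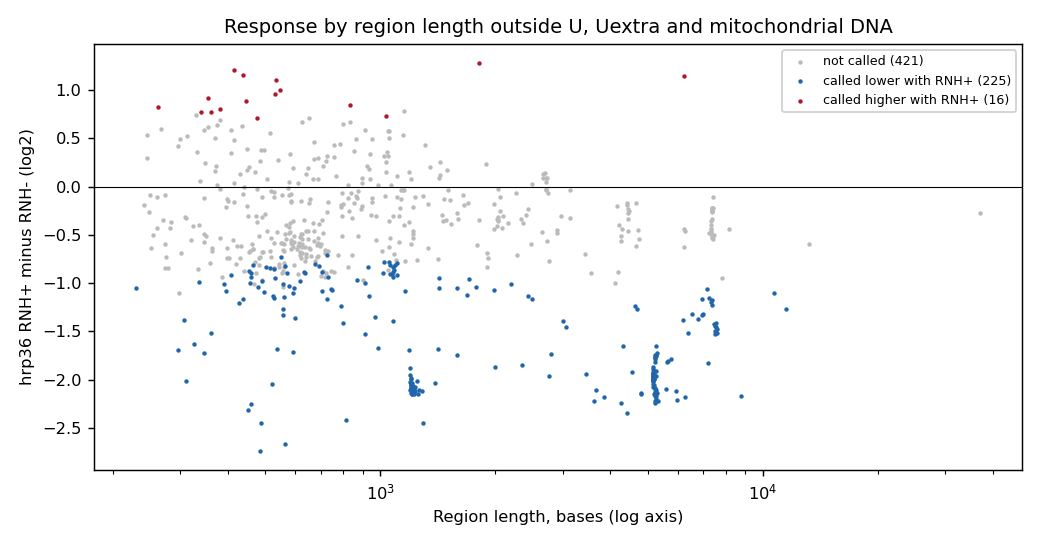
Response of the hrp36 cells (RNH+ minus RNH-, log2) against region length in bases on a log axis, 1 point per placed region (662), coloured by call as lower (blue), higher (red) or neither (grey). Points pile up at a few lengths, near 1200, 5200 and 7300 bases, and those near 1200 and 5200 bases are mostly called lower.

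The placed falls of 2000 bases and over made up 103 of the 225 placed falls (45.8%), and many of them had nearly the same length. Windows of 100 bases in length with 5 or more placed regions were described, a choice made after the values were seen, and no test is given. All 28 regions from 5100 to 5199 bases were called lower, where 44.9% of the whole table was. They were 5165 to 5189 bases long and lay on 7 chromosomes or scaffolds. Their levels in hrp36 cells were 11.36 to 11.95 with RNH+ and 13.24 to 13.95 with RNH-, which do not overlap. The response was -2.15 to -1.87 in hrp36 cells, -0.98 to -0.81 in hrp48 cells and -1.13 to -0.85 in LacZ cells. The hrp36 values thus lay below both others without overlap, but that direction was common to most of the table. Over all 2980 regions the hrp36 response was below that of LacZ cells at 87.2% and below that of hrp48 cells at 97.9%. No region of this class passed the test of the difference between cell groups given below.

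All 22 regions from 5200 to 5299 bases were called lower as well. They were divided at the largest gap between their hrp36 RNH+ levels, as was the class of 7300 bases. The 9 of higher level had 12.70 to 12.93 with RNH+ and 14.46 to 14.59 with RNH-, a response of -1.81 to -1.65. The other 13 had 11.38 to 12.05 with RNH+ and 13.35 to 14.16 with RNH-, a response of -2.25 to -1.91. The hrp36 ranges did not overlap, which a division by the hrp36 RNH+ level favours, since that level is part of the response. In hrp48 cells the response was -0.79 to -0.67 and -1.05 to -0.89 in the same order, also without overlap. In LacZ cells the median response of the 2 groups was -0.70 and -0.71, close to each other. A longer class responded differently. Of 21 regions from 7300 to 7399 bases, 3 were called lower (14.3%), and the response was -1.23 to -0.22 with a median of -0.40. The 9 regions below the largest gap in level had 11.13 to 11.38 with RNH+ and 11.41 to 11.64 with RNH- in hrp36 cells, and 0 of them were called. At these 9 the response was -0.34 to -0.22 in hrp36 cells, against 0.42 to 0.52 in hrp48 and 0.25 to 0.38 in LacZ cells. All 6 regions from 7500 to 7599 bases were called lower, with a median response of -1.46. Regions of 4400 to 4499 bases, in contrast, held 1 fall among 8, and those of 2700 to 2799 bases 2 among 11.

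A shorter class stood beside the long one on the chromosomes. Of 56 placed regions from 1100 to under 1300 bases, 32 were called lower. The share called lower was 34.0% over all 662 placed regions and 44.9% over the whole table. Of the 138 placed regions of 4000 bases or more, 90 were called lower. For 24 of the 56, a placed region of 4000 bases or more lay within 1000 bases, and in all 24 pairs both regions were called lower. The pairs were found on 6 chromosomes or scaffolds, and the limits of this search were chosen after the values were seen, so the count is a description. The gap between the 2 regions was 405 to 605 bases (median 564), and the long region had 5200 to 5299 bases in 19 of 24 pairs. From end to end a pair covered 5939 to 8134 bases, with a median of 7034. The short region came first on the chromosome in 10 pairs and the long one in 14. On 2L, for example, the region from 16153767 to 16154964 was followed after 594 bases by that from 16155559 to 16160787, while that from 10876577 to 10881821 was followed after 590 bases by that from 10882412 to 10883630.

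The short regions of these pairs had 9.94 to 10.44 with RNH+ and 11.81 to 12.47 with RNH- in hrp36 cells, without overlap. They had 9.93 to 10.43 and 10.99 to 11.56 in hrp48 cells, and 10.23 to 10.77 and 10.91 to 11.45 in LacZ cells. Their response was -2.15 to -1.88 in hrp36 cells, -1.22 to -1.06 in hrp48 cells and -0.76 to -0.50 in LacZ cells, so the 3 cell groups did not overlap. The RNH- level of the short regions was higher in hrp36 cells than in either other group at all 24. That direction was common: the hrp36 RNH- level exceeded the LacZ one at 2785 of all 2980 regions. If the list was drawn up from hrp36 RNH- libraries, as its region names are read here, such a count is more likely. None of the 24 short regions passed the test of the difference between cell groups given below. Their RNH+ level was lower in hrp36 than in LacZ cells at all 24, and higher than in hrp48 cells at 20. The long members had 11.41 to 12.93 with RNH+ and 13.58 to 14.59 with RNH- in hrp36 cells. Their response was -2.25 to -1.32 (median -2.09) in hrp36, -1.05 to -0.26 (median -0.94) in hrp48 and -0.75 to -0.09 (median -0.70) in LacZ cells. Full copies of a transposable element family share their length and sequence. No annotation of dm3 repeats was used here, so whether these regions are such copies was not tested, and if their reads were shared among copies the regions would not be separate measurements.

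**Figure D4:**
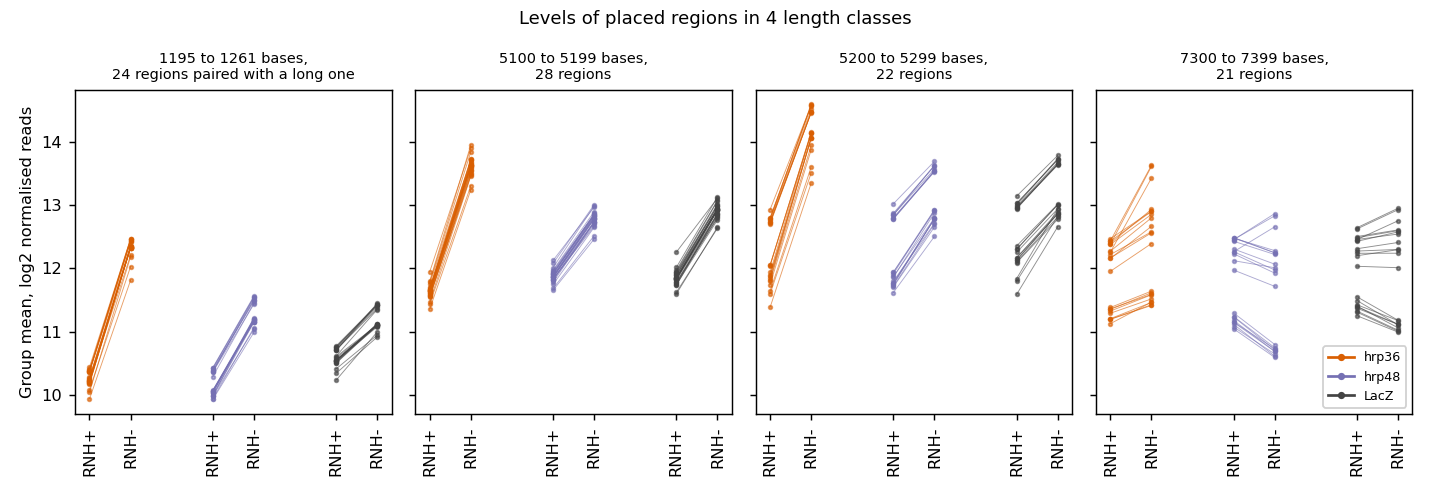
Group means (log2 normalised reads) with RNH+ and RNH- in hrp36, hrp48 and LacZ cells for placed regions of 4 lengths, with 1 line per region: 24 short regions that lie beside a long one, 28 regions from 5100 bases, 22 from 5200 and 21 from 7300, each class 100 bases wide. In the first 3 panels every hrp36 line is higher with RNH- and steeper than the hrp48 and LacZ lines, and in the last panel the lines slope less.

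Few groups of neighbouring regions on placed sequence were called as a whole. With gaps of up to 10 kb, 37 groups of 3 or more placed or mitochondrial regions were formed, holding 186 regions. All members were called lower in 4 groups and higher in 1, 21 groups held no call, and 0 held calls in both directions. The largest of these groups, on 2L from 21417190 to 21538773, lies where the tandem repeats of the histone genes are placed on that arm, from general knowledge. It had 49 regions, of which 15 (30.6%) were called lower and 0 higher, below the 44.9% of the whole table. The 20 regions of 1000 bases and over had levels of 7.83 to 8.85 with RNH+ and 8.45 to 9.57 with RNH-, a median response of -0.79, and 12 calls. The 29 shorter ones had a median response of -0.62 and 3 calls. In hrp48 cells the median over all 49 was 0.26 and in LacZ cells -0.14, and 1 and 28 of the 49 were below 0, against 48 in hrp36 cells. This order was not particular to the group. The hrp36 response was below 0 at 77.0% of all 2980 regions. It lay below the LacZ response at 87.2% of them and below the hrp48 response at 97.9%. No region of the 49 passed the test of the difference between cell groups given below. The next group on 2L, from 20176905 to 20198002, had 1 fall among 12 regions, and that on X from 3301275 to 3315215, one of several placed groups of 6 regions, had 1 rise and 0 falls.

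The group in which all regions were called higher was the last of 3R, 4 regions between 27901250 and 27904618 at the distal end of the arm. Their levels were 8.18 to 8.28 with RNH+ and 7.02 to 7.22 with RNH- in hrp36 cells, without overlap, and the response was 0.995 to 1.20. In hrp48 cells it was 1.18 to 1.33 and in LacZ cells 0.86 to 0.89, so the rise was of similar size in all 3 cell groups. On unplaced scaffolds 275 groups held 1268 regions. All members were called lower in 17 of them and 56 held calls in both directions.

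Leading falls of the single arms were short regions, and all were lower in the other cell groups too. On 2L the region from 20157421 to 20157732 had 5.89 with RNH+ and 7.91 with RNH- (response -2.01), against 6.03 and 7.46 in LacZ cells. On 2R the region from 13685923 to 13686412 had 7.78 and 10.23 (-2.45), on 3L that from 6328133 to 6328592 had 7.80 and 10.05 (-2.25), and on 3R that from 3965579 to 3966567 had 6.64 and 8.31 (-1.67). The 3R region fell more in LacZ cells, at -2.02. On X the leading fall, from 5283818 to 5285030, was a region of 1212 bases of the short class above, with 10.35 with RNH+ and 12.46 with RNH-. The authors' deposited table gives it a fold change of -1.98 (SE 0.43) at an adjusted p of 6.27e-05. On 3RHet the region from 949833 to 950649 had 8.69 and 11.11 (-2.42), which was the deepest of the leading falls on Het scaffolds. On YHet, scaffolds of the Y chromosome, the region from 137140 to 137466 had 8.27 with RNH+ and 9.91 with RNH- in hrp36 cells, against 8.69 and 8.64 in LacZ cells. The leading falls of 2LHet, 2RHet, 3LHet and XHet had responses from -1.71 to -0.94.

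Leading rises outside Uextra had responses from 0.77 to 1.41. On 2R the region from 11862977 to 11864787 had 11.02 with RNH+ and 9.74 with RNH-, a response of 1.28 against 1.11 in LacZ cells. On XHet the region from 189720 to 195934, at 6214 bases the 1 placed rise of 2000 bases or more, had 11.72 with RNH+ and 10.58 with RNH-, a response of 1.14 against 1.67 in LacZ cells. The U region from 1263624 to 1264102 had 8.75 and 7.34, a response of 1.41 against 0.72 in LacZ cells. The longest region of the table, on 2R from 15616887 to 15653954, was not called: its levels were 13.28 with RNH+ and 13.56 with RNH- in hrp36 cells, against 13.28 and 12.26 in LacZ cells. Of the other long regions, X 21558865 to 21572049 was not called (-0.59), and 2RHet 1144057 to 1155539 was called lower (-1.27).

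Uextra held the largest changes in both directions. A response below -3 was seen at 106 Uextra regions, and 56 of these had a base mean of 1000 or more, borders that were set after the values were seen. Of all 2108 Uextra regions, 326 began beyond 25 Mb of this scaffold collection, a border also set after the values were seen. The 56 regions were 203 to 635 bases long (median 392.5), and 33 of them began there. Their levels were 7.60 to 10.72 with RNH+ and 11.35 to 14.33 with RNH- in hrp36 cells, and the response was -4.22 to -3.06. The border on the hrp36 response itself favours such a separation of levels, and a deeper response in hrp36 than in the other cells. The median response at the same regions was -2.36 in hrp48 and -2.26 in LacZ cells, and it was below 0 at 56 and 55 of the 56. By the difference of group means, the deepest called fall was at 12670442 to 12670687 of Uextra, with 5.80 with RNH+ and 10.24 with RNH-, a response of -4.44. The region from 16063795 to 16064245 had 6.98 and 11.27 (-4.29), and that from 28477424 to 28477843 had 8.49 and 12.71 (-4.22).

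Among the rises, the Uextra region from 27151776 to 27152229 had 9.05 with RNH+ and 6.67 with RNH- in hrp36 cells, 8.16 and 5.79 in hrp48 cells, and 9.17 and 6.23 in LacZ cells. Very strong signal marked another set. The Uextra regions at 9215406 to 9215776, 28604014 to 28604379 and 28929684 to 28929972 had base means of 123659, 62682 and 79500 over 288 to 370 bases. Their levels per kb were 17.95 to 18.93 with RNH+ and 15.98 to 16.97 with RNH- in hrp36 cells on the log2 scale, against 12.53 and 14.04 for the large mitochondrial region. All 3 were called higher, with responses of 1.96, 1.97 and 1.73 in hrp36 cells and of 2.10, 2.05 and 1.89 in LacZ cells. Of the 174 Uextra regions with a base mean of 3000 and over, 16 were called lower (9.20%) and 3 higher (1.72%), and 35 were below 0. Over all 2108 Uextra regions the shares were 47.6% lower and 6.50% higher. The median response was 0.57 at the 174 and -0.84 over all Uextra regions.

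The size of the response was then set beside the other cell groups at the same borders. At the 1338 regions called lower in hrp36 cells, the median response was -1.74 in hrp36, -0.83 in hrp48 and -0.84 in LacZ cells. These regions were selected by a negative hrp36 response, which favours a deeper median in hrp36 than in the other cells. The response was below 0 at 1285 and 1265 of them in hrp48 and LacZ cells. At the 159 called higher, it was 1.39 in hrp36, 1.80 in hrp48 and 1.98 in LacZ cells, and all 159 were above 0 in both. Across the 2980 regions the hrp36 response went with that of LacZ cells (Pearson's r 0.873, Spearman's rho 0.859) and of hrp48 cells (0.953 and 0.950). These are correlations across regions, which share borders, normalisation and, on repeats, possibly reads, and are given without a test.

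A test of the difference itself found few regions. Of 2980 regions, 10 (0.336%) were lower in hrp36 than in LacZ cells and 0 (0%) higher at an adjusted p under 0.05, by a Wald test with Benjamini-Hochberg adjustment over the table. Without adjustment, at a p under 0.05, 334 were lower and 0 higher, but 51 were lower and 23 higher once each response was centred on its arm median. The difference was below 0 at 2599 regions (87.2%), with a median of -0.53, which centring brought to -0.04. With the fold changes of both deposited tables at 2165 matched regions 2 were lower, and after the same centring over the 2980 regions 1 was. Against hrp48 cells 0 (0%) were lower and 0 (0%) higher after adjustment (smallest adjusted p = 0.428), while at an unadjusted p under 0.05 there were 262 lower and 0 higher, with a median of -0.68 and 97.9% of regions below 0. After centring on arm medians the unadjusted counts were 2 lower and 5 higher and the median was 0.04. In both comparisons such centring subtracts 1 constant from every difference, which favours balanced counts and a median near 0. The one-sided counts thus depended on where 0 is set, and the source of the shift was not tested. The standard error of the hrp36 table was taken for both responses, and at regions matched with the LacZ table the ratio of the 2 deposited standard errors had quartiles of 0.999 and 1.003.

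The 10 regions that differed from LacZ cells lay on U and Uextra, were 204 to 1090 bases long, and had a median standard error of 0.60 in the authors' deposited table, above the 0.373 of all regions. The one of smallest adjusted p, U 1041854 to 1042944, had 8.69 with RNH+ and 11.89 with RNH- in hrp36 cells, 8.60 and 9.53 in hrp48 cells, and 10.11 and 8.57 in LacZ cells. The response was below 0 at all 10 in hrp36 cells and at 10 of 10 in hrp48 cells, but at 2 of 10 in LacZ cells. Uextra 14420008 to 14420510 was not called in hrp36 cells: its response of -2.32 stood beside a shrunken fold change of -1.07 in the authors' deposited table, with SE 0.63 and adjusted p 0.232. The other 9 were called lower, but among them, too, the response could exceed the shrunken fold change by more than the 1.09 scale of the test. It was -3.20 against -2.29 at U 1041854 and -3.06 against -1.97 at Uextra 2964660. The standard error used in the test may therefore be too small at such regions. Over the 10 regions the median response was -3.06 in hrp36 and 0.94 in LacZ cells, a contrast favoured by their selection on this difference.

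Because the hrp36 regions are taken to have been chosen on hrp36 RNH- libraries, the response of hrp36 cells was also read at regions that the other tables list. At the 6477 regions of the LacZ table the median hrp36 response was 0.05, and 47.6% of regions were below 0. It was 0.17 on placed and -0.35 on unplaced sequence. The 2386 LacZ regions that overlap an hrp36 region (36.8% of the LacZ table, while 73.0% of the hrp36 table overlaps a LacZ region) had a median hrp36 response of -0.71, and the other 4091 had 0.35. In LacZ cells the medians at these 2 sets were -0.21 and -0.02. At the 7735 regions of the hrp48 table the median hrp36 response was 0.32. It was -0.46 at the 3987 that remain without 3748 unplaced regions at which the RNH- level of hrp48 cells exceeded that of LacZ cells by over 1 log2 unit. This alternative was added with the values known, and the direction over the table turned with it. It did not turn at hrp48 regions that overlap no hrp36 region. Their median hrp36 response was 0.50 over all 5185 and 0.40 over the 1439 that remain without the raised regions. The 2548 remaining regions that overlap an hrp36 region had a median of -0.86.

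The 2 kinds of library contributed unequally to these differences between cell groups. At the hrp36 regions, hrp36 cells had a median level 0.50 above that of LacZ cells with RNH- and -0.06 relative to them with RNH+. At the LacZ regions that overlap them, the same medians were 0.42 with RNH- and -0.06 with RNH+, and at the other LacZ regions -0.32 with RNH- and 0.08 with RNH+. The hrp36 RNH- level exceeded that of LacZ cells at 2785 of 2980 hrp36 regions and at 399 of the 4091 LacZ regions without overlap. If each list was chosen on its own RNH- libraries, that choice favours the direction of these counts. How much of it comes from such a choice was not tested.

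**Figure D5:**
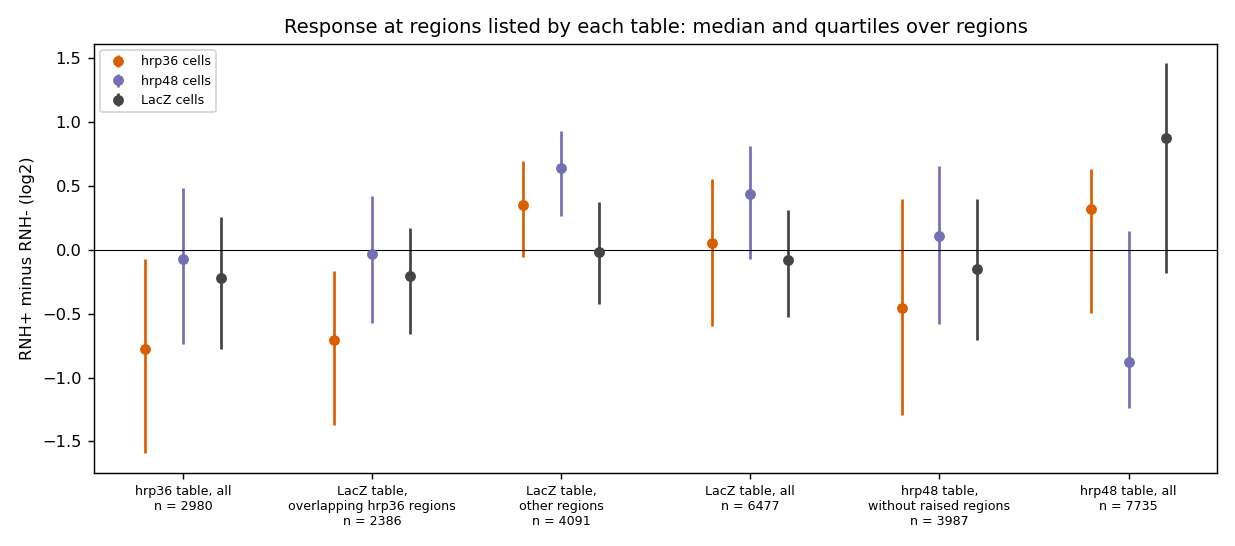
Median response (RNH+ minus RNH-, log2; bars from the lower to the upper quartile over regions) of hrp36, hrp48 and LacZ cells at regions of the hrp36, LacZ and hrp48 tables, with the number of regions under each. The hrp36 median is -0.78 at the hrp36 regions, -0.71 at the LacZ regions that overlap them, 0.35 at the other LacZ regions and 0.05 over all LacZ regions.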

How the data were processed

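The submitters' processing notes name DESeq2, MACS 1.4.2 and Bowtie2 2.2.2 as tools and dm3 as the build. The sources used here do not give their roles and order, or how reads with several places were treated. The authors deposited 1 table of regions per cell group. Its 6 level columns are log2 values, taken here as the authors' means per group of log2(normalised count + 1). The mean of their back-transformed values exceeded the base mean at 0 of 2980 regions. Means of log values would give this with or without the + 1, so the added 1 is an assumption. The base mean is a normalised signal deposited by the authors. The log2 fold change, per the file headers and table names, is shrunken; beside it the authors deposited the standard error, p-values and adjusted p-values, and a Wald score. Tr and Un in the column names are read as RNH+ and RNH-. Counts per library and the input libraries were not used here.

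The response is the difference of the 2 hrp36 group means; length is the end minus the start. Its sign differed from that of the deposited fold change at 30 regions, of which 0 were called. Calls are the authors' adjusted p under 0.05. Differences between cell groups were tested with a Wald statistic whose standard error is the deposited one, scaled by 1.09 (the slope of the response on the shrunken fold change) and combined for 2 responses, with Benjamini-Hochberg adjustment over 2980 regions; the script was tested on simulated data. Tables were overlapped by 1 base or, as an alternative, by a reciprocal 50%. Pericentromeric ends are taken below 1.3 Mb on 2R and 0.4 Mb on 3R, and beyond 22 Mb on 2L and X and 23 Mb on 3L, rounded borders from general knowledge.

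Named regions are those on mitochondrial DNA, the leading called fall and rise of each chromosome, the 5 longest and the 5 of highest base mean, the 5 largest falls and rises by deposited fold change among calls at or above the median base mean, those of smallest adjusted p in the difference tests, and the 3 neighbour groups with most regions outside U and Uextra (the third tied with other groups on X, of which the first by position is named). Other named regions, the length windows, the pairs and the sets with a stated border were chosen after their values were seen. The rules and alternatives as a whole were chosen with earlier results of these data known. Calculations used Python 3.11.15 with pandas 2.3.3, SciPy 1.17.1 and NumPy 2.4.6; figures used Matplotlib 3.10.9.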

Additional observations from a re-analysis of the deposited data

Results flagged for a closer look

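At 10 unplaced regions the response of hrp36 cells was below that of LacZ cells in the test of the difference itself (Wald test, Benjamini-Hochberg adjustment over 2980 regions). The difference, hrp36 minus LacZ, was -4.74 at U 1041854 to 1042944 (adjusted p = 0.00129). On Uextra it was -4.20 at 6806485, -2.998 at 24808150 and -4.09 at 12670442, with adjusted p-values of 0.00726, 0.00726 and 0.0074. The Uextra regions beginning at 2771301, 2964660, 12649949, 28006887, 7454533 and 14420008 had differences of -4.06, -3.85, -3.19, -3.69, -2.83 and -3.73, with adjusted p-values from 0.011 to 0.0343. Both groups' levels rest on 2 libraries each, and no value per library was used.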

How the results depend on the processing

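Of 44 values under an alternative, 30 kept their direction and stayed close to the value reported, 13 moved and 1 changed direction. Without U and Uextra, 227 regions were lower and 16 higher, and the share called lower was 8.33% below 300 bases, 15% below a base mean of 100 and 76.7% at 3000 and over. At an adjusted p under 0.01, 82 regions were higher. Centring on the arm median gave 744 lower, 522 higher and a median response of -0.16, and centring on the median of all regions gave 614 lower and 672 higher. Of the difference from LacZ cells, 2 calls were left at matched regions and 1 after centring on arm medians. The hrp36 response at the hrp48 table was -0.46 without the regions raised in hrp48 RNH- libraries, against 0.32 with them. At hrp48 regions that overlap no hrp36 region it was 0.40 without the raised regions and 0.50 with them. These alternatives consist of fewer regions, a stricter threshold, a shift of every fold change by 1 constant or, at matched regions, fold changes from the LacZ table as well; other causes were not tested. No paired analysis was possible because the files hold group means and no library values, and leaving out each replicate was not run for the same reason. With 2 libraries per group and unknown depth, a difference between cell groups that misses the threshold is not shown to be absent.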
